A study of Bos taurus with 13 samples.

Results

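The comparison of cows that stayed in negative energy status with cows that stayed in positive energy status was made on EV-coupled small RNA from bovine follicular fluid, where EVs are extracellular vesicles, small membrane particles shed by cells. Always negative cows (ANCs) and always positive cows (APCs) were represented by 2 pools per group, collected at weeks 5 to 6 post-calving. These 4 of the 13 pools of the series were chosen by the metabolic status in their labels, and the miRNAs listed in all 4 were 207 that passed a filter on low reads and 66 that did not, of 311 listed in any pool. The other 9 pools were transition cows (TCs) at weeks 5 to 6, TCs at weeks 9 to 10 and heifers, with 3 pools each. The study sampled 2 cows for the ANC pools and 2 for the APC pools, out of 5 cows classified in each group. All of these cows were postpartum females, and their fluid came from large follicles aspirated by ovum pick-up. How the cows were divided between the pools of a group was not given, so the p-values measure the spread between pools, which need not be the spread between animals.

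EVs in follicular fluid come from granulosa, cumulus and theca cells and, through the follicle wall, from blood. They carry miRNAs, short RNAs that lower the output of messenger RNAs with matching sites, from cell to cell. In early lactation, a dairy cow that cannot eat enough to cover the energy of her milk mobilises body fat, and the follicles that grow in that time are bathed in fluid of a changed metabolite content. The miRNAs below are ordered by what they are known for: blood cells, the follicle, metabolism and the most abundant vesicle miRNAs, and epithelia.

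The deposited values are CPM, counts scaled to a common library size, which the authors adjusted by TMM, a trimmed mean of the log ratios between libraries. The reads behind them were recovered from the steps between low values, and numbered 222091 and 145030 in ANC pools 1 and 2 and 327359 and 421435 in APC pools 1 and 2. A miRNA with 3 reads, taken as the smallest visible abundance, stood at 11.1, 19.0, 9.7 and 8.9 CPM in these pools, limits that cover counting error only. The deepest pool had 2.91 times the reads of the shallowest, and both APC pools were deeper than both ANC pools. The 207 miRNAs that passed the filter were tested between the groups by limma as log2(CPM + 5), with 5 CPM added as a pseudocount. The other 66 miRNAs are given as values only. Differences are ANC minus APC on this scale, so a negative value is a lower level in ANCs, and the scale understates changes of low miRNAs. To be called DE, a miRNA needed a log2 difference of 1 or more in either direction, an unadjusted p-value under 0.05 and, after Benjamini-Hochberg adjustment, one no higher than 0.25. Errors are given as SE, and intervals are 95% intervals of the limma fit.

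No miRNA was called DE. The count was 0 of 207 (0%) by limma, where the lowest adjusted p-value was 0.535, and 0 by edgeR's quasi-likelihood test on the recovered reads, while DESeq2 called 6, all lower in ANCs. At an unadjusted p-value under 0.05, 9 miRNAs were lower in ANCs (4.35% of those tested) and 8 were higher (3.86%). The adjusted p-value was 0.535 for each of these 17. Leaving out 1 pool changed the count: 34 miRNAs were called without APC pool 1, 10 without ANC pool 2, 7 without APC pool 2 and 0 without ANC pool 1. With a group of 1 pool, these fits take that pool to vary like the pools of the other group. The red blood cell miRNAs miR-451 and miR-486 and the small RNA miR-1246, all lower in ANCs, were called in each of the 5 alternative fits that called any miRNA. These fits were DESeq2, a fit with the replicate number as a block, and those without ANC pool 2, APC pool 1 or APC pool 2. They reuse the same pools, and the other 10 alternatives called none.

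The split of the miRNAs with unadjusted p-values under 0.05 differed between scalings. With library totals alone and no TMM factor, the median difference of all tested miRNAs moved from -0.01 to 0.40, and 5 miRNAs were lower and 18 higher in ANCs. With median-of-ratios size factors, 12 were lower and 6 higher. DESeq2, which differs in its test as well as in its size factors, gave 16 lower and 2 higher. The counts of individual directions below are therefore given with the authors' scaling, under which 105 miRNAs leaned lower and 102 higher.

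The largest difference with a p-value under 0.05 was in miR-451, an erythroid miRNA cut from its hairpin by Argonaute 2 and neighbour of miR-144 in the RefSeq gene table of the ARS-UCD2.0 assembly. It was at 0 and 31.6 CPM in ANC pools 1 and 2, and at 725 and 128 CPM in APC pools 1 and 2. Both ANC pools were below both APC pools, and the 0 stands for less than the 11.1 CPM that 3 reads would give. The levels rest on 0 and 5 reads in ANCs and on 224 and 43 reads in APCs. miR-451 thus passed the filter on low reads through the APC pools only, where it was higher. The log2 difference was -4.52 ± 1.28 (95% interval -7.81 to -1.24; adjusted p = 0.535, limma). Fewer red blood cells or vesicles behind a pool and less of the miRNA in each cannot be told apart in these data.

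miR-486, which lies in the ankyrin gene ANK1 and is likewise abundant in red blood cells, leaned the same way. Its levels were 122 and 1049 CPM in ANCs and 7707 and 1772 CPM in APCs. The pools did not overlap, but ANC pool 2 and APC pool 2 lay closer to each other than to the other pool of their own group. The difference was -3.34 ± 1.23 (95% interval -6.49 to -0.19). With 1 pool left out, the difference ran from -5.96 to -3.09 for miR-451 and from -4.86 to -1.81 for miR-486, with the lowest size without ANC pool 1 and the highest without ANC pool 2. Summed over both erythroid miRNAs, the levels were 122 and 1080 CPM in ANCs and 8432 and 1900 CPM in APCs. The study discarded blood-contaminated fluid, and the part of red blood cells in this difference was not tested. Among all 13 pools, scaled together over the 262 miRNAs listed in each, the ANC pools held the lowest levels of miR-451, at 0 and 33.5 CPM, with 37.7 to 667 CPM in the 9 pools of the other groups. For miR-486, ANC pool 1 was the lowest at 130.7 CPM. ANC pool 2, at 1111 CPM, lay within the range of those 9 pools, 712.8 to 10295 CPM.

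**Figure D1:**
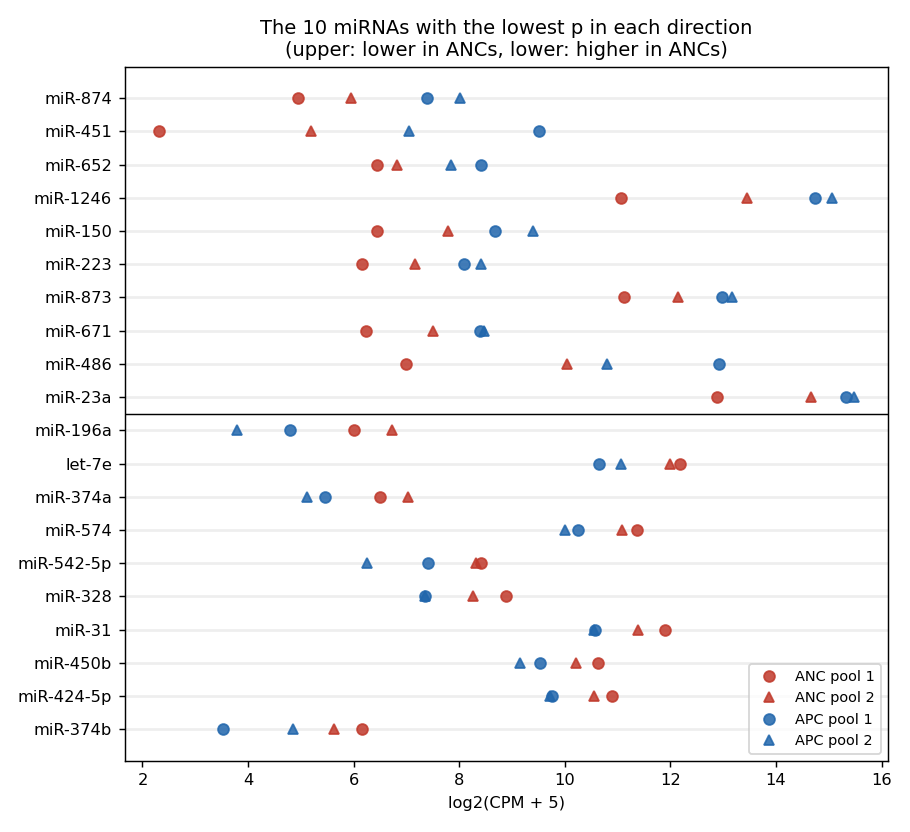
Level in each pool of the 10 tested miRNAs with the lowest p-value in each direction, as log2(CPM + 5) on the horizontal axis. Red symbols are ANC pools and blue symbols APC pools (circle pool 1, triangle pool 2). No red symbol lies among the blue ones in any of the 20 rows, but the red circles and triangles of miR-451, miR-486 and miR-1246 stand far apart from each other.

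White blood cell miRNAs leaned lower in ANCs as well. Of 6 listed leukocyte miRNAs, 5 were tested. Of these, 2 had an unadjusted p-value under 0.05 and all 5 leaned lower, with a median difference of -1.47 against -0.01 over all tested miRNAs, of which 4.35% were lower at that p-value. The median was -0.73 without ANC pool 1 and -0.92, with 4 lower and 1 higher, without APC pool 2. miR-150, a miRNA of mature lymphocytes, had 81.5 and 215 CPM in ANCs and 405 and 668 CPM in APCs, a difference of -1.93 ± 0.62 (95% interval -3.53 to -0.33). miR-223, which marks neutrophils and monocytes, had 66.7 and 139 CPM in ANCs and 269 and 335 CPM in APCs, a difference of -1.59 ± 0.53 (95% interval -2.94 to -0.23). In both, every ANC pool was below every APC pool.

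The other leukocyte miRNAs had p-values above 0.05. miR-142-5p, which all blood cell lineages make, had 248 and 701 CPM in ANCs and 764 and 1775 CPM in APCs (difference -1.47, 95% interval -3.29 to 0.35). miR-155, induced in activated lymphocytes and macrophages, had 252 and 291 CPM in ANCs and 515 and 425 CPM in APCs (difference -0.78, 95% interval -1.81 to 0.26). Both kept the groups apart. miR-146a, a brake on inflammatory signalling, did not, with 40.8 and 101 CPM in ANCs and 55.1 and 297 CPM in APCs. The summed level of the leukocyte list was 696 and 1491 CPM in ANCs and 2024 and 3530 CPM in APCs. No leukocyte miRNA was at 0 in any of the 4 pools. In the scaling of all 13 pools, the ANC pools ranked lowest and next to lowest for miR-150 and miR-142-5p, with 254.6 to 997 CPM in the 9 other pools for miR-150. Counted from the highest, ANC pools 1 and 2 ranked 13 and 11 for miR-223, 12 and 11 for miR-155, and 13 and 10 for miR-146a.

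miR-874, encoded within the KLHL3 gene, had the lowest p-value of all tested miRNAs. It stood at 25.9 and 56.9 CPM in ANCs and at 162 and 255 CPM in APCs, where the ANC levels rest on 7 and 9 reads. The difference was -2.25 ± 0.58 (95% interval -3.74 to -0.77; adjusted p = 0.535, limma). The difference was -2.43 between pools numbered 1 and -2.07 between pools numbered 2, although the numbers do not pair the groups. TCs at weeks 5 to 6 covered a wide range in the common scaling, 22.8 to 206 CPM, while TCs at weeks 9 to 10 and heifers reached 49.4 CPM at most.

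Further miRNAs with unadjusted p-values under 0.05 and lower levels in ANCs were miR-652, miR-671 and miR-873, which lie within the genes TMEM164, CHPF2 and LINGO2 in the RefSeq table. miR-652 had 81.5 and 107.4 CPM in ANCs and 337 and 226 CPM in APCs (-1.51 ± 0.47). miR-671 had 70.4 and 177 CPM in ANCs and 334 and 347 CPM in APCs (-1.56 ± 0.57). miR-873 had 2212 and 4518 CPM in ANCs and 8115 and 9156 CPM in APCs (-1.45 ± 0.49). ANC pool 1 was the lowest of the 4 pools in all 3. This was the rule rather than the exception: of 40 miRNAs with both ANC pools below both APC pools at any fold (19.3% of those tested), ANC pool 1 was the lowest in 31. The converse order, both ANC pools above, was found for 50 miRNAs (24.2%), and APC pool 2 was the lowest pool in 33 of them.

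miR-1246 was the most abundant miRNA with a p-value under 0.05. It is known to arise from the U2 spliceosomal RNA as well as from its annotated gene. It stood at 2149 and 11234 CPM in ANCs and at 27466 and 34017 CPM in APCs, and took 0.26% and 1.23% of the listed signal in ANCs against 2.59% and 2.72% in APCs. The difference was -2.64 ± 0.84 (95% interval -4.78 to -0.49), and it was -1.44 without ANC pool 1 and -3.83 without ANC pool 2. The APC pools were the highest of all 13 pools, and the 9 other pools lay between 1398 and 22716 CPM.

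**Figure D2:**
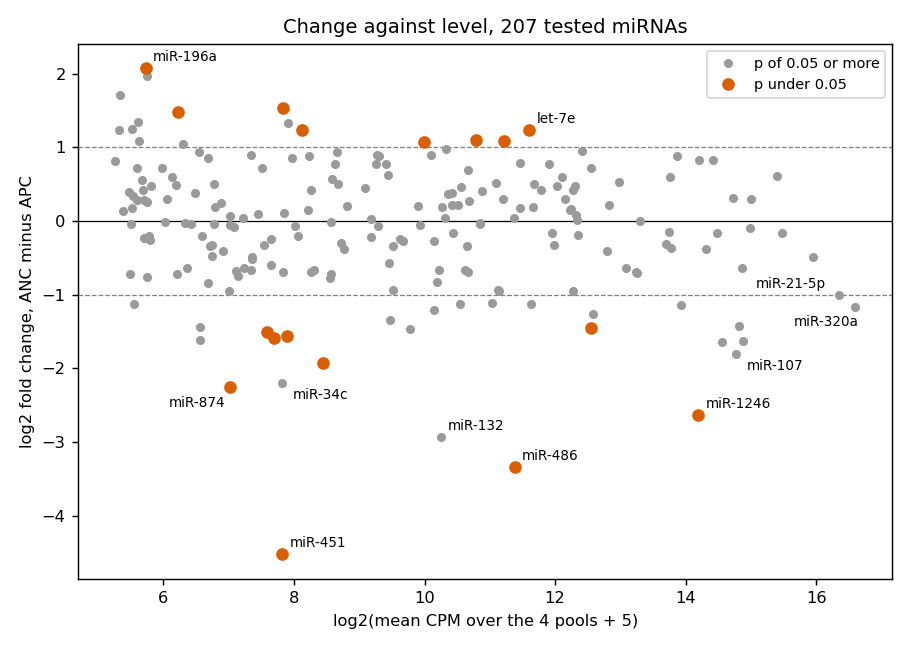
Log2 fold change (ANC minus APC) against the log2 of the mean level for the 207 tested miRNAs, with dashed lines at differences of 1 and -1. Orange points have an unadjusted p-value under 0.05 (17 miRNAs). Differences below -2 were found from about the level of miR-874 up to miR-1246, and only miR-196a exceeded 2.

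Higher levels in ANCs were found for some miRNAs of the X-linked cluster that makes miR-424, miR-503, miR-542 and miR-450, known from granulosa cells of growing follicles. Of its 7 tested members, 2 had an unadjusted p-value under 0.05, 5 leaned higher and 2 lower in ANCs, and the median difference was 0.60. Of all tested miRNAs, 3.86% were higher at that p-value. miR-542-5p had 337 and 316 CPM in ANCs and 165 and 71.2 CPM in APCs (1.54 ± 0.55, 95% interval 0.13 to 2.95). miR-450b had 1575 and 1175 CPM in ANCs and 738 and 561 CPM in APCs (1.07 ± 0.41, 95% interval 0.01 to 2.13). For both, no APC pool reached an ANC pool.

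miR-424-5p, the most abundant member and one that shares its seed with the miR-15/16 family, had 1908 and 1497 CPM in ANCs and 861 and 843 CPM in APCs. Its difference of 0.98 ± 0.38 was just below the size set for a call. Its opposite arm, miR-424-3p, leaned the same way with 81.5 and 75.8 against 64.8 and 38.6 CPM. miR-503-5p from the same cluster overlapped, at 144 and 82.1 CPM in ANCs and 213.7 and 139.5 CPM in APCs. The summed level of the cluster was 4787 and 3747 CPM in ANCs against 2639 and 2274 CPM in APCs. In the common scaling, ANC pools were the 2 highest of 13 for miR-450b, but for miR-424-5p and miR-542-5p 1 TC pool of weeks 5 to 6 was higher, at 2898 and 635 CPM.

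The clustered pair miR-195 and miR-497, of the same seed family as miR-424-5p, had differences of 0.78 ± 0.41 and 0.90 ± 0.45. Both kept the groups apart, with 3935 and 3140 against 2477 and 1680 CPM for miR-195. miR-16b, the most abundant family member, did not separate them: it had 33825 and 27195 CPM in ANCs and 44546 and 23558 CPM in APCs. Of the 7 tested miR-15/16 family members, none had a p-value under 0.05.

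The let-7 family, which holds back proliferation and is made in most differentiated cells, leaned higher in ANCs. Of 9 tested members 8 leaned higher and 1 had an unadjusted p-value under 0.05 (3.86% of all tested miRNAs were higher at that level), with a median difference of 0.72. The median was 0.41 without APC pool 2 and 0.47 without ANC pool 1. For 6 of the 9, both ANC pools were above both APC pools, an order that 50 of the 207 tested miRNAs had (24.2%). let-7e had 4635 and 4069 CPM in ANCs and 1593 and 2143 CPM in APCs, a difference of 1.23 ± 0.39 (95% interval 0.23 to 2.23). Its cluster neighbours miR-99b and miR-125a leaned the same way by 0.47 and 0.53.

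The more abundant let-7 members differed by less. let-7f had 22140 and 26000 CPM in ANCs and 13801 and 13253 CPM in APCs (0.83, 95% interval -0.11 to 1.76). let-7i had 34785 and 21078 CPM in ANCs and 20950 and 11112 CPM in APCs, so that ANC pool 2 and APC pool 1 were nearly equal. let-7b, the most abundant, had 47456 and 38359 CPM in ANCs and 50440 and 45453 CPM in APCs (-0.17, 95% interval -1.12 to 0.79), a direction that turned without the TMM factor. The whole family took 19.3% and 15.2% of the listed signal in ANCs and 11.8% and 8.90% in APCs. Members of this family differ by few bases, and the matching of reads to mature miRNAs could divide them differently among the members.

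miR-202, a miRNA made almost only in the gonads and found in granulosa cells, had 6561 and 7563 CPM in ANCs and 4980 and 2651 CPM in APCs. Its difference was 0.95, with a 95% interval of -0.23 to 2.14. In the common scaling, the ANC pools were the highest 2 of 13, at 7016 and 8014 CPM, against 3254 to 6364 CPM in the 9 other pools. miR-31, studied as a regulator of cell migration, had a similar place: 3790 and 2679 CPM in ANCs and 1509 and 1499 CPM in APCs (1.08 ± 0.39, 95% interval 0.07 to 2.09). The ANC pools were the highest of 13 for it, at 2839 and 4053 CPM, and the APC pools were the lowest, at 1599 and 1687 CPM.

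Other miRNAs higher in ANCs at p-values under 0.05 were miR-196a, miR-374a, miR-574 and miR-328. miR-196a, from the HOX gene clusters that pattern the body axis, had 59.3 and 101 CPM in ANCs and 22.7 and 8.91 CPM in APCs. These levels rest on 16 reads in each ANC pool and on 7 and 3 reads in the APC pools. APC pool 2 was thus at the smallest visible abundance. The difference of miR-196a, 2.07 ± 0.63 (95% interval 0.46 to 3.69), was the largest upward one among the tested miRNAs. It passed the filter on low reads through the ANC pools only, where its level was higher. The APC pools were the 2 lowest of all 13 for it, at 10.0 and 24 CPM, with at least 55.1 CPM in the 9 other pools.

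miR-374a had 85.2 and 126 CPM in ANCs and 38.9 and 29.7 CPM in APCs (1.48 ± 0.51). miR-574 had 2634 and 2161 CPM in ANCs and 1208 and 1018 CPM in APCs (1.10 ± 0.38). miR-328 had 471 and 303 CPM in ANCs and 159 and 157 CPM in APCs (1.23 ± 0.45). In each of these, the gap between the groups exceeded the gap between the APC pools. For miR-328, however, the ANC pools lay further apart in CPM than the nearest ANC and APC pools. miR-374b, of the same family as miR-374a, had 66.7 and 44.2 CPM in ANCs and 6.48 and 23.8 CPM in APCs (1.71, 95% interval -0.04 to 3.46), where the lowest pool was below the level of 3 reads. Like miR-196a, it passed the filter through the ANC pools only.

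Set against a difference of at least 1 in size, both ANC pools were below both APC pools for 20 miRNAs (9.66%) and above them for 15 (7.25%). With library totals alone these counts were 14 and 41. An exact permutation test of 2 pools against 2 cannot give a p-value under 0.333 for a single miRNA, so separation of the pools alone passes no test here.

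Of 9 tested metabolic miRNAs, 7 leaned lower and 2 higher in ANCs, or 5 and 4 with library totals alone, and none had an unadjusted p-value under 0.05. miR-103 and miR-107, which lie in pantothenate kinase genes and are studied in insulin sensitivity, are near-identical, so reads may be divided between them either way. miR-107 had 5917 and 23031 CPM in ANCs and 33462 and 49208 CPM in APCs (-1.80, 95% interval -3.68 to 0.09). miR-103 had 8547 and 26057 CPM in ANCs and 32789 and 48430 CPM in APCs (-1.42, 95% interval -3.07 to 0.24). The steps from ANC pool 1 to ANC pool 2 were as wide as the differences between the groups. Without ANC pool 1, the differences of miR-107 and miR-103 shrank to -0.82 and -0.61.

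The pair miR-23a and miR-23b-3p, which are also nearly identical, followed the same order of pools. miR-23a had 7584 and 25798 CPM in ANCs and 41305 and 45411 CPM in APCs (-1.63, 95% interval -3.33 to 0.07). miR-23b-3p had 5909 and 21186 CPM in ANCs and 34019 and 35623 CPM in APCs (-1.64, 95% interval -3.38 to 0.11). Without ANC pool 1, the differences of miR-23a and miR-23b-3p were -0.75 and -0.72, and without ANC pool 2 they were -2.51 and -2.56. These 4 miRNAs, put together after their values were seen, took 3.40% and 10.5% of the listed signal in ANCs and 13.4% and 14.3% in APCs.

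The partners of miR-23 within its 2 clusters did not move together. miR-27a-3p, beside miR-23a, leaned lower in ANCs with 252 and 524 CPM against 609 and 1422 CPM (-1.34). miR-27b, beside miR-23b, had the opposite lean with 24630 and 14488 CPM in ANCs against 11019 and 9432 CPM in APCs (0.89, 95% interval -0.23 to 2.01). Here both ANC pools were above both APC pools. Over all tested pairs of miRNAs from single genes within 10 kb of each other in the RefSeq table, 30 of 46 leaned the same way, and so did 6 of the 10 pairs of arms of 1 hairpin that were both tested.

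**Figure D3:**
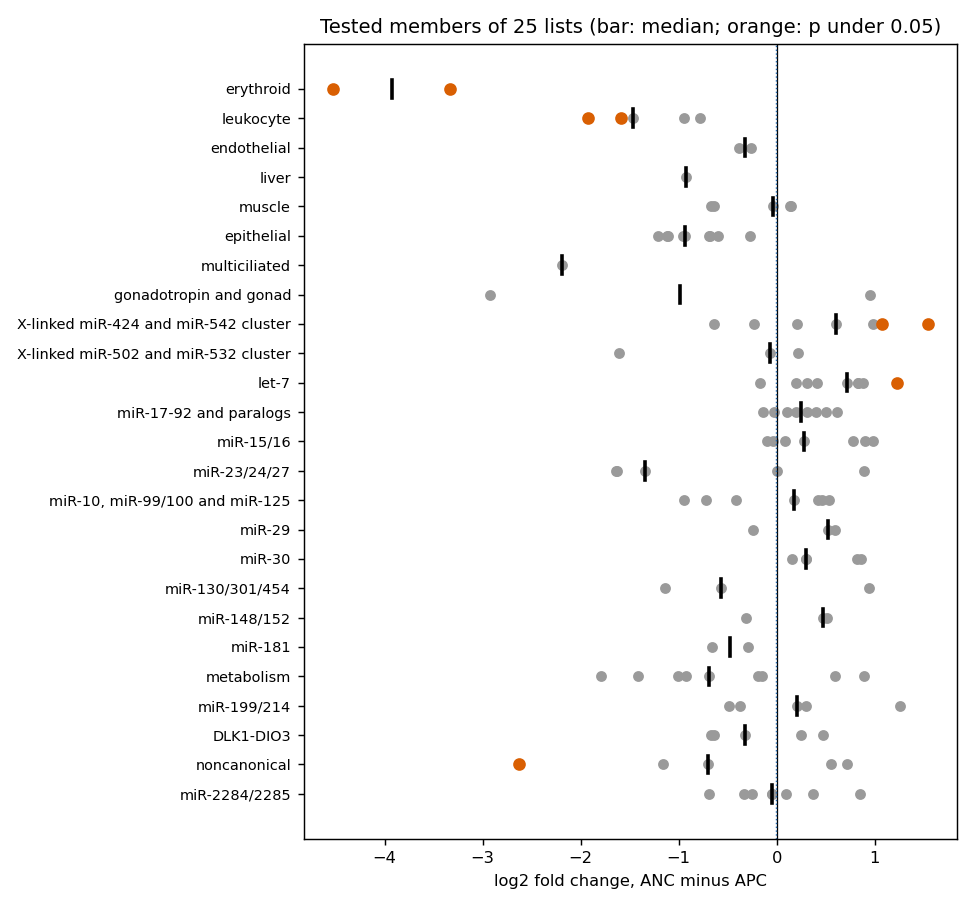
Log2 fold changes (ANC minus APC, horizontal axis) of the tested members of 25 lists of miRNAs, with a black bar at the median of each list and orange points for unadjusted p-values under 0.05. Erythroid and leukocyte members lie to the left, let-7 members to the right but for 1, and the miR-23/24/27 list spans both sides from -1.64 to 0.89.

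No tested member had an unadjusted p-value under 0.05 among the 2 endothelial arms of miR-126 (median -0.32), 5 muscle miRNAs (-0.04), 3 miRNAs of the X-linked miR-502 and miR-532 cluster (-0.06) or 5 miRNAs of the imprinted DLK1-DIO3 cluster (-0.32). These 4 medians lay above 0 with library totals alone. Likewise, no such p-value was found among 9 metabolic miRNAs (-0.70), 3 of the miR-130 family (-0.57) and 2 of the miR-181 family (-0.48). None was found among 5 of the miR-30 family (0.30), 7 of the miR-10, miR-99, miR-100 and miR-125 families (0.18) or 5 of the miR-199 and miR-214 group (0.21). Of 5 tested miRNAs or small RNAs made by noncanonical routes, miR-1246 alone was under 0.05, and their median was -0.70.

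The most abundant miRNAs took a smaller part of ANC libraries. The 10 most abundant miRNAs of each pool held 50.2% and 46.2% of the listed signal in ANCs and 51.7% and 54.4% in APCs. The groups did not overlap, which for 2 pools against 2 is p = 0.333 by an exact two-sided permutation test. Of the 10 miRNAs with the highest mean, 8 leaned lower in ANCs and none had a p-value under 0.05. With library totals alone, 6 of them leaned lower and 4 higher.

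miR-320a, a miRNA made without the enzyme Drosha, was the most abundant on average, with 41598 and 86999 CPM in ANCs and 127924 and 141191 CPM in APCs (-1.16, 95% interval -2.42 to 0.10), and it was -0.63 without ANC pool 1. Its share of the signal was 5.06% and 9.49% in ANCs and 12.1% and 11.3% in APCs. miR-21-5p, a pro-survival miRNA that follicular cells induce around ovulation, had 47067 and 55697 CPM in ANCs and 62178 and 170107 CPM in APCs (-1.01, 95% interval -2.51 to 0.50). Its difference rested on APC pool 2, without which it was -0.28. miR-423-5p had 50716 and 54629 CPM in ANCs and 80839 and 67823 CPM in APCs (-0.49), with the APC pools the highest of all 13.

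miR-92a, of the miR-17-92 cluster that drives proliferation, was one of the abundant miRNAs that leaned higher in ANCs, with 59860 and 43345 CPM against 25630 and 43398 CPM. The second pools of both groups were nearly equal. None of the 8 tested members of this cluster and its paralogs had a p-value under 0.05, and all 8 overlapped between the groups, as did 117 of the 207 tested miRNAs. The miR-29 family (3 tested) and the family of miR-148 and miR-152 (3 tested) likewise overlapped in every tested member.

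Several of the widest gaps were between pools of 1 group. miR-132, which gonadotropins induce in granulosa cells through cAMP, had 88.9 and 69.5 CPM in ANCs and 4598 and 83.1 CPM in APCs. APC pool 1 was high and APC pool 2 lay between the ANC pools. The ratio of the group means was 29.5-fold, yet the difference of -2.93 ± 1.85 had a 95% interval of -7.67 to 1.81. Without APC pool 1 the difference was -0.08, and without APC pool 2 it was -5.78. DESeq2 called it lower in ANCs with an adjusted p = 0.00915. In the other groups, miR-132 ranged from 205 to 1191 CPM in TCs at weeks 5 to 6, from 68.3 to 2648 CPM in TCs at weeks 9 to 10 and from 237 to 6420 CPM in heifers, so 1 pool far above the rest was also seen there.

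Most epithelial miRNAs were high in the second APC pool, though not in that pool alone, and miR-184 and miR-205 were higher in ANC pool 2. The miR-200 family, which keeps epithelial cells in their state by repressing ZEB1 and ZEB2, is encoded in 2 clusters. miR-141, of one cluster, had 252 and 626 CPM in ANCs and 253 and 3355 CPM in APCs. miR-200a, of the other, had 2182 and 3191 CPM in ANCs and 2114 and 12395 CPM in APCs. APC pool 1 thus lay near the level of ANC pool 1 for both. The sum over the 5 family members was 4479 and 6470 CPM in ANCs and 4805 and 25820 CPM in APCs. TC pool 2 of weeks 5 to 6 was similarly high in the common scaling. It held 14599 CPM of miR-200a and 3243 CPM of miR-141, against 13944 and 3774 CPM in APC pool 2.

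The differences of the 5 members ran from -1.21 to -0.94, each with an interval that included 0, and their median of -1.11 became 0.00 without APC pool 2 and -2.23 without APC pool 1. miR-34c, which with miR-449a is known from multiciliated cells such as those lining the oviduct, had 66.7 and 19.0 CPM in ANCs and 42.1 and 757 CPM in APCs (-2.19, 95% interval -5.87 to 1.48). Its difference was -0.18 without APC pool 2 and -4.20 without APC pool 1. miR-449a, which did not pass the filter, had 0 and 25.3 CPM in ANCs and 19.4 and 288 CPM in APCs. In the common scaling, TC pool 2 of weeks 5 to 6 held more miR-34c, 7828 CPM against 852 CPM in APC pool 2. miR-449a was at 1607 and 324 CPM in these pools. Of the 12 miRNAs on the epithelial and multiciliated lists, 10 were highest in APC pool 2 among the ANC and APC pools. The share of all tested miRNAs that were highest in that pool, the deepest of the 4, was not counted. The other 2 of the 12, miR-184 and miR-205, were highest in ANC pool 2. In the common scaling, miR-184 had 11.9 and 281 CPM in ANCs and 220 and 53.4 CPM in APCs. miR-205 had 349 and 1366 CPM in ANCs and 645 and 1135.5 CPM in APCs. The summed epithelial list was 5198 and 8359 CPM in ANCs and 5948 and 27868 CPM in APCs. The part of other cell types in the difference was not tested.

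**Figure D4:**
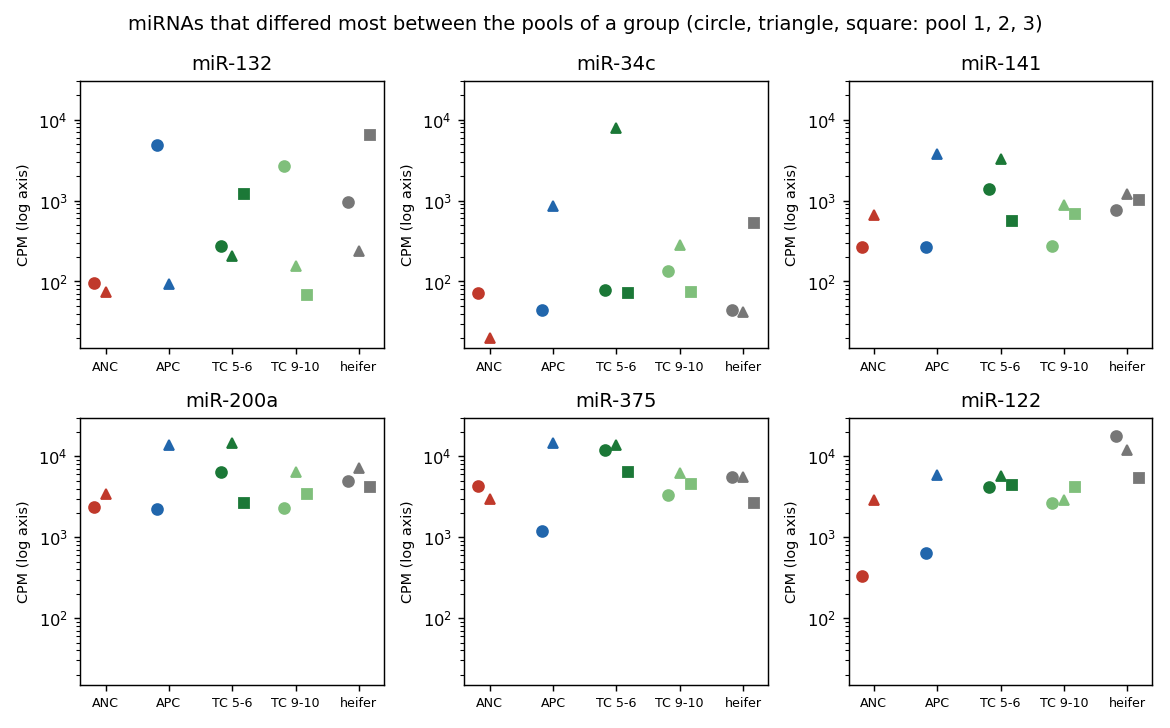
Level in each of the 13 pools, scaled together (CPM on a log axis), of 6 miRNAs that differed widely between pools of 1 group. Circles, triangles and squares are pools 1, 2 and 3 of a group. miR-132 was high in APC pool 1, miR-34c, miR-141, miR-200a and miR-375 in APC pool 2, and miR-122 was low in pool 1 of both ANCs and APCs. TC pool 2 of weeks 5 to 6 was also high in miR-34c, miR-141, miR-200a and miR-375.

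miR-375, an epithelial and endocrine miRNA studied in granulosa cells, had 4016 and 2799 CPM in ANCs and 1127 and 12956 CPM in APCs. Its APC pools were the lowest and the highest of the 13. miR-10a, from a HOX cluster, showed the same order, with 967 and 1377 CPM in ANCs and 842 and 5860 CPM in APCs. miR-122, the main miRNA of hepatocytes, which the liver releases to blood, was instead divided by pool number, with 308 and 2761 CPM in ANCs and 596 and 5207 CPM in APCs. The heifer pools held 5369 to 17623 CPM of miR-122 in the common scaling, more than any ANC pool.

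Spread within groups and difference between groups were of like size over the whole set. The median absolute log2 difference was 0.51 between the 2 ANC pools and 0.61 between the 2 APC pools, and the 4 medians between an ANC and an APC pool ran from 0.56 to 0.89. ANC pool 2 lay about as far from APC pool 1 (0.56) as from ANC pool 1 (0.51). Differences of at least 2 were found for 8 miRNAs between the ANC pools and for 17 between the APC pools. The sign was the same in the pools numbered 1 and in the pools numbered 2 for 141 of 207 miRNAs, with at least 1 in size in both for 13 lower and 8 higher in ANCs. The numbers do not pair the groups, so these counts depend on which pools are set against each other.

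**Figure D5:**
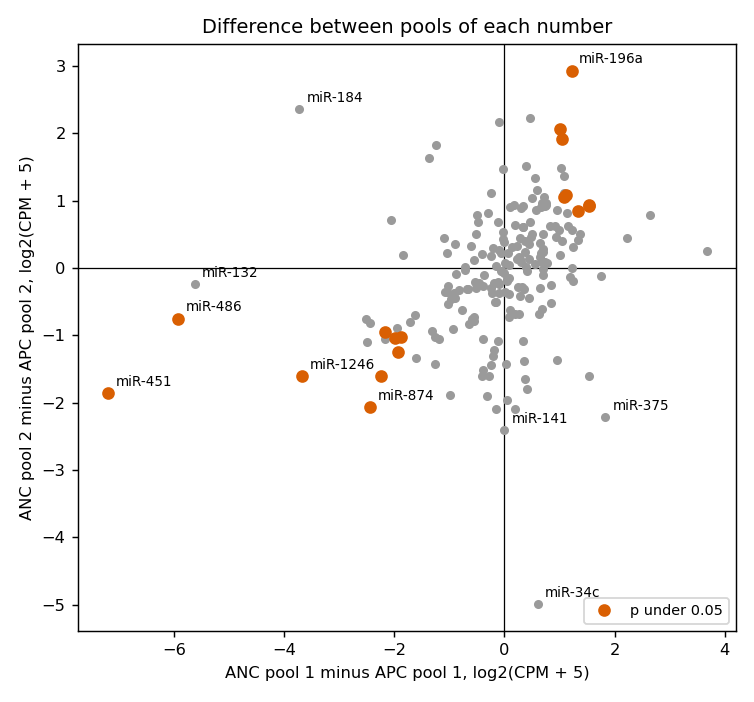
Difference between ANC pool 1 and APC pool 1 (horizontal axis) against that between ANC pool 2 and APC pool 2 (vertical axis) on the log2(CPM + 5) scale, for 207 miRNAs. Orange points have an unadjusted p-value under 0.05. miR-132 (-5.62 and -0.24) and miR-34c (0.61 and -4.99) each differed mainly between pools of 1 number, while miR-874 (-2.43 and -2.07) differed by at least 2 between both. The numbers do not pair the groups, and other pairs of pools would give other differences.

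Detection was nearly complete in both groups. At least 1 read was found for 266 and 265 miRNAs in ANC pools 1 and 2, for 269 in APC pool 1 and for every listed miRNA in APC pool 2, and 256 miRNAs had reads in all 4 pools. The order changed at equal depth: drawn down to the 145030 reads of the smallest pool, 262 and 265 were detected in ANCs and 264 and 261 in APCs (p = 0.667, exact two-sided permutation test). With at least 5 reads and no change of depth, 238 and 215 were detected in ANCs and 251 and 248 in APCs.

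Among the miRNAs listed in all 4 pools, the ruminant miRNA miR-2285z was the only one without a read in both pools of a group. A miRNA not listed in all 4 was not analysed here. It had 0 reads in either ANC pool and 9 and 11 reads in the APC pools, or 29.1 and 32.7 CPM. Against the level of 3 reads per ANC pool, it was at least 2.05-fold higher in APCs, and it did not pass the filter for the test. It belongs to the miR-2284 and miR-2285 family of many similar copies, where 8 of 17 listed members were tested, none had a p-value under 0.05 and the median difference was -0.05. None of the miRNAs listed in all 4 pools lacked reads in both APC pools.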

How the data were processed

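EV-coupled small RNA of 2 ANC and 2 APC pools was analysed. Groups and replicate numbers were taken from the labels. The authors prepared libraries with the QIAseq miRNA kit, whose use of molecular identifiers in counting was not given in the sources used here. Adaptors were trimmed with cutadapt 1.11, reads were mapped to UMD3.1 with Bowtie2 2.2.2 and matched to miRBase, and replicates were not merged. The deposited CPM values were normalized by the authors with TMM. In pools whose TMM-adjusted totals exceed what CPM can sum to, the same deposited column was recorded as signal. Totals ran from 822818.3 to 1251163.8.

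All 1092 of 1092 values came out as whole reads (tolerance 0.1 read). Values were tested as log2(CPM + 5) with limma 3.58.1 (mean-variance trend) on the 4 pools, after filterByExpr of edgeR 4.0.16 (minimum count 10, minimum total 15). The procedure was tested on simulated data with set differences and the same spread for every miRNA. That check does not cover spreads as wide as those seen between some of these pools. DESeq2 1.42.0 and edgeR's quasi-likelihood test were run on the recovered reads. Other scalings, pseudocounts of 1 and 20, no filter, a mean of at least 50 CPM, a replicate block, all 13 pools in the fit and each pool left out were also tried. Whole-series levels come from 1 TMM scaling of all pools. The interval given is 95%.

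Named miRNAs were the 10 with the lowest p-value in each direction, the 10 most abundant, miR-451, miR-132, miR-2285z, miR-874 and miR-486, members of 25 lists, and those without reads in a group. miR-103, miR-107, miR-23a and miR-23b-3p were put together after their values were seen. The comparison, members and lists were chosen with earlier results of these data known. Every listed name matched the RefSeq gene table of ARS-UCD2.0, used for host genes and neighbours only.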

Additional observations from a re-analysis of the deposited data

How the results depend on the processing

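The number of DE miRNAs was 0 in 10 of 15 alternatives. It was 6 with DESeq2 and 0 to 34 when 1 pool was left out (0 without ANC pool 1, 10 without ANC pool 2, 34 without APC pool 1 and 7 without APC pool 2). The labels give both groups replicates 1 and 2. The study lists the RNA of replicates 1 as measured on 1 day and that of ANC replicate 2 on the next (the day of APC replicate 2 was not analysed here), and the part of the day was not tested. ANC and APC pools of equal number share no animal, deviations from the group mean correlated at 0.216 between them, and 2 pairs cannot establish a pairing. A fit with the replicate block called 28 miRNAs and put 36 at an unadjusted p-value under 0.05, with 1 residual degree of freedom. The count at an unadjusted p-value under 0.05 was 33 with all 13 pools in the fit, and 6 to 37 with 1 pool left out. With a log2 difference of at least 1, pools did not overlap for 35 miRNAs, for 55 with library totals alone and for 35 to 74 with 1 pool left out. The difference in detected miRNAs turned from -5.5 to 1.11 at the depth of the smallest pool. The share of the 10 most abundant kept its direction in both alternatives. The 20 miRNAs with the lowest p-values kept their direction in every alternative in which they were tested. They were chosen by p-value from these same pools, and their groups did not overlap. Leaving out 1 pool could therefore not turn their direction. With 1 pool left out, the log2 difference ran from -3.06 to 0.64 for miR-141, from -2.23 to 0.32 for miR-200a, from -2.34 to 0.45 for miR-10a and from -2.12 to 0.21 for miR-146a, with the upper values without APC pool 2. It ran from -2.50 to 0.64 for miR-122, from -1.95 to 1.57 for miR-375 and from -0.55 to 0.36 for miR-16b. With library totals alone it was 0.24 for let-7b, 0.22 for miR-375 and 0.31 for miR-16b. The causes were not tested. With 2 pools of 2 cows per group, only differences much wider than the spread between pools can be seen, and levels under 8.9 to 19.0 CPM rest on fewer than 3 reads.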
